A study of Mus musculus with 2 samples.

Results

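Aminoacyl-tRNA synthetases are the enzymes that join each amino acid to its transfer RNA. In all, 35 of their genes were followed in RNA-seq of mouse bone marrow cells labelled as haematopoietic stem cells. Members were taken by gene symbol from a fixed list, 20 encoding enzymes of the cytosol and 15, with names ending in 2, encoding enzymes of the mitochondrion, out of 23961 symbols in all. The list leaves out Lars2, whose row carries no estimate in either library. The study has 2 libraries. One comes from wild-type mice (labelled Per2wt) and 1 from mice deficient in Per2 (labelled Per2def), a repressor of the circadian clock, both of strain C57BL/6, untreated and kept under a light/dark cycle before use. The allele, the age and number of the animals and the sort markers are not stated in the labels. With 1 library for each genotype there is no replicate check, no test and no p-value, so every difference is between these libraries and not between genotypes.

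Each cell compartment that makes protein needs a full set of charged transfer RNAs. Cytosolic synthetases supply the ribosomes that translate nuclear messages, while a separate set, encoded in the nucleus and imported, charges the transfer RNAs of mitochondrial DNA. The enzymes fall into classes I and II by the fold of the catalytic site, and several cytosolic ones are held together in the multisynthetase complex by scaffold proteins. Many cytosolic synthetase genes are known targets of the amino acid response, in which the kinase GCN2 (gene Eif2ak4) senses uncharged transfer RNA and the factor ATF4 raises transcription.

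Values are FPKM, fragment counts divided by transcript length and by the mapped fragments of the library, a scale on which levels of different genes can be compared. Differences are log2(FPKM + 1) in Per2def minus Per2wt, which understates the change of low genes, and ratios are of plain FPKM. Absolute depth is unknown. Among low values the most frequent Per2def to Per2wt ratio was 0.805, the inverse of a depth ratio of 1.24. Per2 itself was listed at 1.96 FPKM (Per2wt) and 6.16 FPKM (Per2def), so its RNA does not check the genotype label. Of 11 stem and progenitor markers, Cd34 (90.5 and 83.9 FPKM) and Flt3 (48.8 and 51.4 FPKM) were the most abundant, and 3, Slamf1, Fgd5 and Hoxb5, were under 1 FPKM in both libraries. The 11 summed to 230 FPKM (Per2wt) and 223 FPKM (Per2def), less than the neutrophil or the erythroid markers. The markers therefore do not settle whether the cells are those of the label. Some markers of other blood cells differed by more than any synthetase did. The 7 neutrophil markers summed to 427 FPKM (Per2wt) and 854 FPKM (Per2def), with none at 0. The 8 erythroid markers summed to 563 and 495 FPKM, with members moving opposite ways. The globin genes were lower in Per2def, Hba-a1 at 193 and 115 FPKM, Hba-a2 at 67.8 and 9.50 FPKM, Hbb-bt at 71.0 and 41.2 FPKM and Hbb-bs at 29.2 and 0.0030 FPKM, although reads of such near-identical copies can be split between them. Car1 (177 and 294 FPKM) and Rhag (5.41 and 9.82 FPKM) were higher. The T cell list summed to 2.66 FPKM (Per2wt) and 5.98 FPKM (Per2def) and the monocyte list to 16.9 and 25.9 FPKM. The B cell list summed to 6.63 and 6.30 FPKM, the megakaryocyte list to 33.6 and 32.5 FPKM and the stromal or endothelial list to 11.5 and 13.5 FPKM. The B cell genes Ms4a1 and Pax5 were listed at 0 in 1 library each. In bulk RNA, fewer cells of a type and less RNA per cell cannot be told apart, and the part of these markers in the synthetase values was not tested.

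All 35 synthetase genes were expressed at 1 FPKM or more in both libraries, and the cytosolic enzymes stood above the mitochondrial ones. The cytosolic genes ran from 5.67 to 40.2 FPKM in Per2wt (median 17.3) and from 6.40 to 45.96 FPKM in Per2def (median 18.5). The mitochondrial genes ran from 1.36 to 12.7 FPKM in Per2wt (median 5.06) and from 1.67 to 13.9 FPKM in Per2def (median 6.22). For comparison, the median of the 11121 genes tested, those reaching 1 FPKM in a library, was 5.85 FPKM (Per2wt) and 6.10 FPKM (Per2def). The ranges overlapped, since 14 of 20 cytosolic genes in Per2wt and 15 in Per2def lay above the highest mitochondrial gene, and 9 of 15 mitochondrial genes in each library lay below the lowest cytosolic gene. Summed FPKM of the cytosolic genes were 4.73 times those of the mitochondrial genes in Per2wt and 4.84 times in Per2def. The ratio of the medians was 3.42 and 2.98, or 2.92 and 2.78 without Gars and Kars, whose enzymes serve both compartments. These measures moved opposite ways between the libraries, and the mitochondrial median fell on different genes, Hars2 in Per2wt and Fars2 in Per2def, so no change of balance is read from them.

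**Figure D1:**
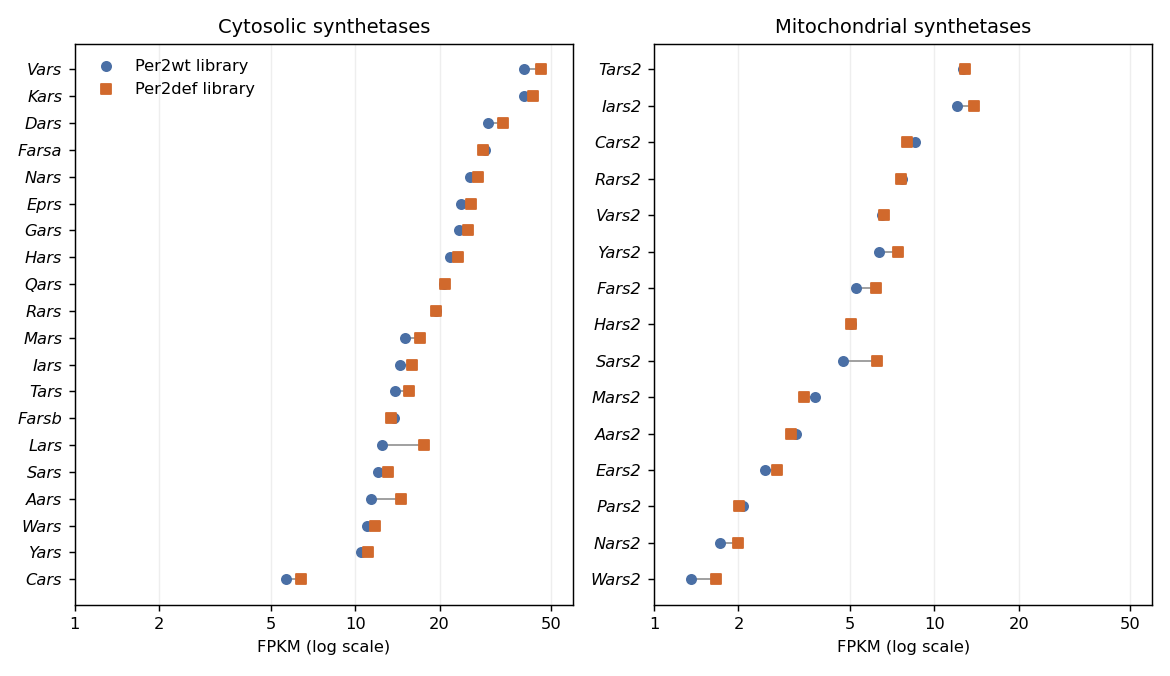
FPKM of each synthetase gene on a log axis in the Per2wt library (circles) and the Per2def library (squares), cytosolic enzymes on the left and mitochondrial enzymes on the right, each panel sorted by Per2wt; a line joins the values of a gene. Vars and Kars led both libraries, Wars2 was the lowest, and the widest gaps between the libraries were those of Lars, Aars and Sars2.

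The 8 synthetases of the multisynthetase complex had a median of 20.1 FPKM (Per2wt) and 20.2 FPKM (Per2def), against 13.8 and 15.0 FPKM for the 12 other cytosolic genes. Kars (ENSMUSG00000031948.14, chromosome 8, 111993443 to 112011323, GRCm38), the lysine enzyme, which serves both cytosol and mitochondrion through alternative transcripts, was the most abundant of the complex at 40.2 FPKM (Per2wt) and 43.0 FPKM (Per2def). Dars, the aspartate enzyme, followed at 29.9 and 33.6 FPKM. Eprs, a single protein that carries both the glutamate and the proline enzyme, was at 23.9 and 25.8 FPKM. It has the longest coding sequence of the 35 genes, 1512 codons. Qars, the glutamine enzyme, differed by very little (20.8 and 20.9 FPKM), as did Rars, the arginine enzyme (19.5 and 19.4 FPKM). Mars, the methionine enzyme, which supplies initiator and elongator transfer RNA alike, was at 15.1 and 16.98 FPKM. Iars, the isoleucine enzyme, was at 14.5 and 15.96 FPKM. Lars (ENSMUSG00000024493.9, chromosome 18, 42202298 to 42262194, minus strand), the leucine enzyme, which also acts as a leucine sensor upstream of mTORC1, was the lowest of the 8 in Per2wt at 12.5 FPKM and ranked sixth in Per2def at 17.6 FPKM. That 1.42-fold ratio was the widest among all 35 members.

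The scaffold genes of the complex stood at levels like those of its enzymes. Aimp1, which also gives rise to a secreted cytokine, was at 23.3 FPKM (Per2wt) and 24.5 FPKM (Per2def). Aimp2, the scaffold core, was at 14.6 and 16.5 FPKM, and Eef1e1, which encodes AIMP3, at 18.4 and 18.5 FPKM. All 3 were higher in Per2def by 0.0088 to 0.16, with a median difference of 0.068, and none reached 1.5-fold. Of all genes 62% were higher. Eef1e1 turned lower under median-of-ratios and upper-quartile scaling.

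Among cytosolic synthetases outside the complex, Vars (ENSMUSG00000007029.16, chromosome 17, 35000987 to 35016322), the valine enzyme that associates with elongation factor 1, was the most abundant of all members at 40.2 FPKM (Per2wt) and 45.96 FPKM (Per2def). In Per2wt it lay above 92.6% of the genes tested and in Per2def above 93.4%. Farsa and Farsb encode the alpha and beta subunits of the phenylalanine enzyme, which assemble in equal numbers. Farsa was at 29.1 and 28.6 FPKM, well above Farsb at 13.8 and 13.5 FPKM, so the RNA levels of these partners were unequal in both libraries while each was nearly level between them. Nars, the asparagine enzyme, was at 25.7 and 27.4 FPKM. Gars, the glycine enzyme, which like Kars serves both compartments, was at 23.4 and 25.4 FPKM. Hars, the histidine enzyme and an autoantigen in myositis, was at 21.9 and 23.4 FPKM. With Vars and Farsa these formed an upper tier, and the rest lay between 5 and 16 FPKM. Tars, the threonine enzyme, was at 13.8 and 15.5 FPKM, and Sars, the serine enzyme, which also supplies the transfer RNA used for selenocysteine, at 12.0 and 13.1 FPKM. Aars (ENSMUSG00000031960.14, chromosome 8, 111033144 to 111057664), the alanine enzyme, was at 11.4 FPKM (Per2wt) and 14.5 FPKM (Per2def), 1.28-fold higher. Wars, the tryptophan enzyme, known as an interferon-gamma induced gene, was at 11.1 and 11.7 FPKM. Yars, the tyrosine enzyme, was at 10.5 and 11.1 FPKM. Cars, the cysteine enzyme, was the lowest cytosolic member in both libraries, at 5.67 and 6.40 FPKM.

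Mitochondrial synthetases spanned a 9.35-fold range in Per2wt and an 8.34-fold range in Per2def. Tars2 (12.7 and 12.8 FPKM) and Iars2 (12.0 and 13.9 FPKM), the threonine and isoleucine enzymes, were the only mitochondrial members at 10 FPKM or more, and they traded first place between the libraries. Cars2, the cysteine enzyme, which is also known to make cysteine persulphide, was at 8.54 and 7.99 FPKM. Rars2, the arginine enzyme, stood at 7.65 and 7.63 FPKM. Vars2, the valine enzyme, was at 6.49 and 6.60 FPKM. A middle tier held Yars2 (6.37 and 7.40 FPKM), Fars2 (5.25 and 6.22 FPKM) and Hars2 (5.06 and 5.05 FPKM), for tyrosine, phenylalanine and histidine. Unlike its cytosolic counterpart of paired subunits, FARS2 works as a single chain. Sars2 (ENSMUSG00000070699.5, chromosome 7, 28741992 to 28753871), the serine enzyme, went from 4.72 FPKM in Per2wt to 6.25 FPKM in Per2def, 1.32-fold higher and the widest ratio among the mitochondrial members. The lowest tier was under 4 FPKM in both libraries. It held Mars2 (3.74 and 3.43 FPKM), Aars2 (3.21 and 3.08 FPKM), Ears2 (2.49 and 2.75 FPKM), Pars2 (2.07 and 2.01 FPKM), Nars2 (1.72 and 1.99 FPKM) and Wars2 (1.36 and 1.67 FPKM). Mars2 and Pars2 are the 2 members whose longest coding sequence lies in a single exon. Wars2 (ENSMUSG00000004233.14, chromosome 3, 99141068 to 99239186), the tryptophan enzyme, has the shortest coding sequence, 360 codons. In Per2wt it lay above 9.41% of the genes tested, those reaching 1 FPKM in either library.

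For 13 amino acids the list holds a cytosolic and a mitochondrial enzyme, and in 12 of them the cytosolic gene was higher in both libraries. The ratio of cytosolic to mitochondrial FPKM had a median of 3.54 in Per2wt and 3.39 in Per2def. Asparagine stood at the top, with Nars 15.0 times Nars2 in Per2wt and 13.7 times in Per2def. Tryptophan came next, at 8.15 and 7.05. Isoleucine (1.21 and 1.15) and threonine (1.09 and 1.21) were close to even. Cysteine was the exception, with Cars at 0.663 times Cars2 in Per2wt and 0.801 times in Per2def. Glutamate and proline are paired through Eprs, which was 9.58 and 9.37 times Ears2 and 11.5 and 12.9 times Pars2. Between the libraries the ratio was larger in Per2def for 6 amino acids and smaller for 7. The extremes were alanine, where the ratio went from 3.54 to 4.72 (log2 change 0.41), and serine, where it went from 2.55 to 2.09 (log2 change −0.29). Asparagine, tryptophan and valine led and cysteine came last in both libraries, while the amino acids between them partly changed places.

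**Figure D2:**
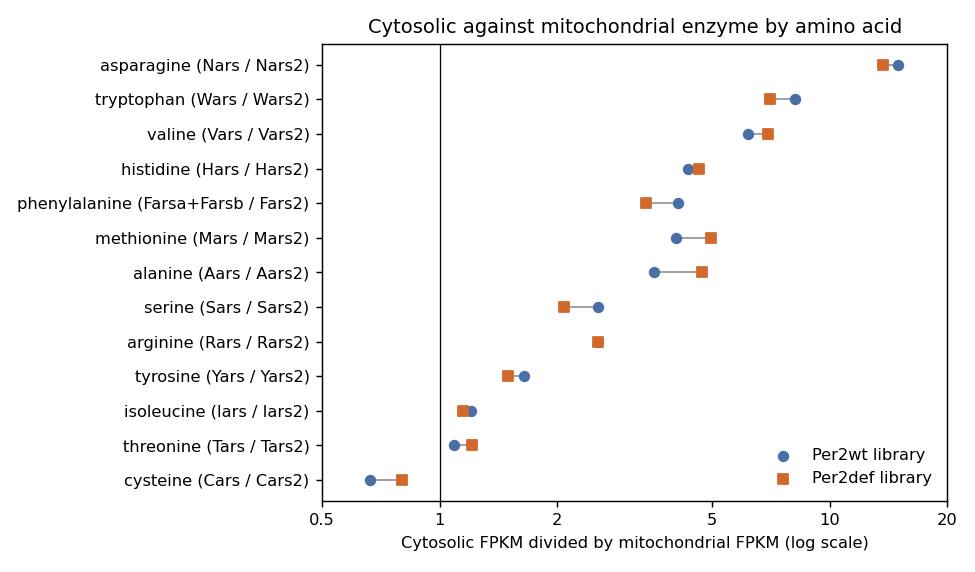
Cytosolic FPKM divided by mitochondrial FPKM for each of the 13 amino acids with both enzymes, on a log axis, in the Per2wt library (circles) and the Per2def library (squares); the vertical line marks equal levels, and for phenylalanine the mean of Farsa and Farsb is used. All amino acids except cysteine lie to the right of the line in both libraries.

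No synthetase gene reached 1.5-fold between the libraries on the log2(FPKM + 1) scale in either direction. Of the 11121 genes, 2.61% were at least 1.5-fold higher in Per2def and 1.7% at least 1.5-fold lower. At 2-fold the shares were 1.25% and 0.998%. Without small and predicted RNAs they were 1.44% and 0.782% at 1.5-fold and 0.273% and 0.188% at 2-fold. By sign alone, 26 members were higher in Per2def and 9 lower, where 62% of all genes were higher and 38% lower. Differences of the members ran from −0.098 to 0.47 with a median of 0.10, against a median of 0.051 over all genes. Of the 35 members 17 lay within 0.1 of 0, as did 4689 of the 11121 genes. The shift of all genes depends on the scaling. With the libraries scaled by the median of ratios, 50.8% of all genes were higher in Per2def and their median was 0.0031. Among the members Qars, Tars2 and Vars2 then turned lower, with 16 of 20 cytosolic and 7 of 15 mitochondrial genes left higher.

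Cytosolic members were higher in Per2def in 17 of 20 cases, against 62% of all genes, with a median difference of 0.11. Under median-of-ratios scaling the count was 16, against 50.8% of all genes, and the median 0.056. Farsb (−0.030), Farsa (−0.020) and Rars (−0.0034) were the lower ones. Lars stood apart from the rest at 0.47, followed by Aars (0.33) and Vars (0.19). Next in order were Dars (0.17), Mars (0.16), Tars (0.16), Cars (0.15) and Iars (0.13). The remaining cytosolic genes were between 0.01 and 0.11, namely Gars (0.11), Eprs (0.11), Sars (0.11), Kars (0.096), Hars (0.091), Nars (0.087), Wars (0.079), Yars (0.077) and Qars (0.011). The complex had a median of 0.12 over its 8 enzymes, and the 12 others had 0.099. By class the medians were 0.13 over 9 class I genes and 0.10 over 10 class II genes, with Eprs kept apart because it carries an enzyme of each class. These contrasts have no error attached. Of the all-gene set, 678 genes, or 6.10%, lay as far from 0 as Lars or farther, and 1375 genes, or 12.4%, as far as Aars or farther.

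Mitochondrial members went both ways, with 9 of 15 higher in Per2def and a median difference of 0.020. That is near the all-gene share of 62%, and the median turned to −0.027 under median-of-ratios scaling. Sars2 led at 0.34, and 1251 genes (11.2%) lay as far from 0 or farther. It was followed by Fars2 (0.21), Iars2 (0.19), Yars2 (0.19), Wars2 (0.18), Nars2 (0.14) and Ears2 (0.10). Vars2 (0.020), Tars2 (0.017), Hars2 (−0.0010) and Rars2 (−0.0024) were level to within a few hundredths. The lower members were Mars2 (−0.098), Cars2 (−0.087), Aars2 (−0.047) and Pars2 (−0.029). Of the 13 amino acids with an enzyme in each compartment, both enzymes were higher in Per2def for 7, both lower for 1 (arginine, by under 0.01) and of opposite sign for 5. Under median-of-ratios scaling the counts were 5, 1 and 7. Aars, Mars, Cars and Hars were higher while their mitochondrial counterparts were lower, and Fars2 was higher while Farsa and Farsb were lower. For serine both were higher, the mitochondrial enzyme by more. The cytosolic median exceeded the mitochondrial one by 0.087 on the log2 scale, and by 0.048 with means in place of medians. Neither gap has an error attached.

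Scatter between the libraries gives a scale for these values. With small and predicted RNAs set aside, 4512 genes had a mean of 5 to 20 FPKM, and 95% of them, centred on the median, fell between −0.34 and 0.42. The limits were −0.39 and 0.52 for the 4344 genes of 1 to 5 FPKM. For the 1309 genes of 20 to 100 FPKM they were −0.33 and 0.31. Of the 35 members, 34 lay inside the range of their level and 1, Lars, lay above it. Sars2 and Aars were inside. This range holds biological and counting differences together.

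**Figure D3:**
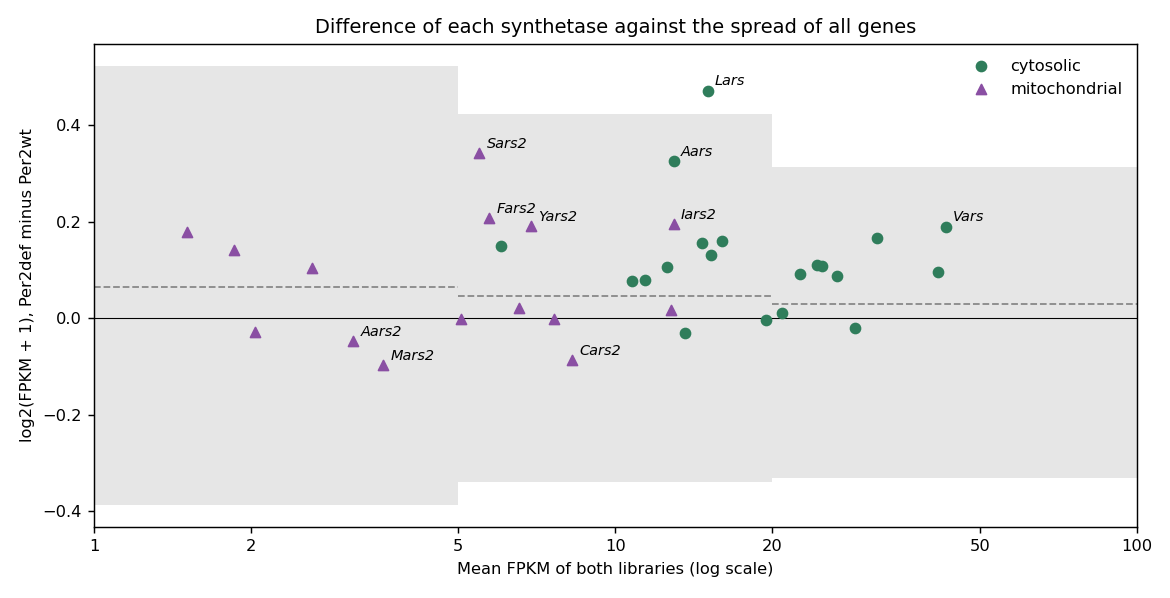
Difference in log2(FPKM + 1), Per2def minus Per2wt, of each cytosolic (circles) and mitochondrial (triangles) synthetase against its mean FPKM on a log axis; grey bands give the middle 95% of all genes other than small and predicted RNAs at 1 to 5, 5 to 20 and 20 to 100 FPKM, and dashed lines their medians. Lars, at 0.47, is the single member outside its band.

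Promoter windows of some synthetase genes share letters of the amino acid response. RefSeq windows of 300 bases (GRCm38.p6), 250 before to 50 after the start, matched 26 of the 35 members by symbol, 13 cytosolic and 13 mitochondrial. The letters TGATGNAA, the core of the element that ATF4 with C/EBP partners is known to bind, were searched on both strands and occurred in 5 of the 13 cytosolic windows and 0 of the 13 mitochondrial ones. Of all 32851 windows 3.97% held them, and of the 10405 windows of genes at 1 FPKM or more 2.22%. The match nearest the start of each gene is shown to let the flanking letters be compared, as 30 bases of the gene's strand with the match in capitals. In Gars, Aars, Iars and Tars the element is read from the other strand.
Yars: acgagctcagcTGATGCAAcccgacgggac
Gars: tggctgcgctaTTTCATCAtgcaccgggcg
Aars: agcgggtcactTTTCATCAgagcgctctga
Iars: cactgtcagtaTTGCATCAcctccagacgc
Tars: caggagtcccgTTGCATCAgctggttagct
In order, these lie at chr4:129189895-129189924 (plus strand), chr6:55037960-55037989 (plus), chr8:111033840-111033869 (plus), chr13:49682126-49682155 (plus) and chr15:11399655-11399684 (minus).

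Outside the element the flanks differ, and the element is close to the RefSeq start in all 5 genes, its first base as printed being 4 bases into the transcript in Yars, 8 in Iars, 10 in Aars, and at −15 and −30 relative to the start in Tars and Gars. In the printed matches of Yars, Iars and Tars the open letter is C, giving TGATGCAA. The Aars window also holds TGATGCAA, at a match farther from the start that is not printed. In all, 4 of the 26 member windows (15.4%) hold TGATGCAA, against 0.605% of windows of genes at 1 FPKM or more. The 5 cytosolic genes with the element had differences of 0.077 to 0.33 (median 0.13). The 8 cytosolic genes whose windows lack it had differences of −0.030 to 0.17 (median 0.10), so the ranges overlapped. Lars has no window in the table and enters neither group. A further 6 strings were looked at after the values were seen. The ETS-type core CCGGAAG occurred in 9 of 26 windows (34.6%), in Farsa, Gars, Kars, Mars and Sars and in Cars2, Mars2, Rars2 and Sars2, against 18.9% of windows of genes at 1 FPKM or more. The E-box CACGTG occurred in 5 windows (Aars, Ears2, Farsb, Iars and Tars), or 19.2%, against 10.4%. The GC box GGGCGG occurred in 18, or 69.2%, against 62.9%. ATTGG occurred in 13, or 50%, against 38.0%. TATAAA occurred in 3, or 11.5%, against 6.77%, and TGACGTCA in 0 against 3.07%. A match describes letters only, and 26 windows make each share coarse.

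Several synthetase genes start next to another gene on the opposite strand, and some of these neighbours differed between the libraries in the other direction. In GENCODE M21 (GRCm38), Hars (chromosome 18, 36766528 to 36783205) and Hars2 (36783008 to 36792562) are arranged head to head and overlap by 198 bases, yet Hars was 4.33 times Hars2 in Per2wt and 4.62 times in Per2def. Sars2 starts 171 bases from Mrps12, which encodes a mitochondrial ribosomal protein and was at 16.7 FPKM (Per2wt) and 15.0 FPKM (Per2def) (−0.14), the other direction from Sars2. Fars2 overlaps Lyrm4, a gene of iron-sulphur cluster assembly, by 115 bases at its start, and Lyrm4 was at 4.55 and 3.64 FPKM (−0.26) while Fars2 was higher. Kars and Terf2ip, a telomere protein gene, are 74 bases apart and both slightly higher in Per2def, Terf2ip by 0.12. Rars2 and Orc3, of the origin recognition complex, are 12 bases apart and nearly level, Orc3 at −0.035. Mars and Ddit3 overlap tail to tail by 68 bases. Ddit3 encodes the stress factor CHOP and was at 7.0 and 9.53 FPKM (0.40). In all, 10 members overlap a coding gene on the other strand, and the strand setting of the counting is not given, so reads of the shared bases cannot be told apart.

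The amino acid response list, of 27 genes with 20 at 1 FPKM or more, was higher in Per2def for 16 genes and lower for 4, with a median difference of 0.097. Of all genes 62% were higher. Under median-of-ratios scaling 11 of the list were higher and 9 lower, and the median was 0.047. None reached 1.5-fold on the log2(FPKM + 1) scale, while on plain FPKM Sesn2 was 1.62-fold and Asns 1.504-fold higher. The share of all genes past 1.5-fold on plain FPKM was not counted, and Sesn2 was near the floor of 1 FPKM in Per2wt. Asns, asparagine synthetase, stood at 11.2 FPKM (Per2wt) and 16.9 FPKM (Per2def) (0.55), wider than any synthetase. Sesn2, a leucine sensor, was at 1.55 and 2.5 FPKM (0.46), and Ddit3 followed at 0.40. Atf4 RNA was at 40.8 and 42.2 FPKM (0.047), near the all-gene median of 0.051. The kinase gene Eif2ak4 was at 4.44 and 4.82 FPKM (0.097), level with the median of the list. Both were named outside the rule after their values were seen. Chac1 and Trib3, further targets of the pathway chosen in the same way, were under 1 FPKM in both libraries.

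Genes that act beside the mitochondrial synthetases went both ways, with more of them lower than higher in Per2def. The 11 mitochondrial translation factors had a median difference of −0.012, with 4 higher in Per2def and 7 lower. Of all genes 62% were higher. The 3 widest of the 11 were all higher. Ptcd3, a protein of the small mitochondrial ribosomal subunit, led (10.3 and 12.7 FPKM, 0.28). Next came the recycling factor gene Gfm2 (5.00 and 5.55 FPKM, 0.13) and Mrrf (4.68 and 5.17 FPKM, 0.12). The lowest of the 11 was at −0.069. Mitochondrial glutaminyl-tRNA is made by amidation of a mischarged precursor, since vertebrate mitochondria have no glutamine-charging enzyme of their own. Its subunit genes were at 2.77 and 2.65 FPKM for Gatb (−0.048), 6.84 and 6.75 FPKM for Gatc (−0.016) and 3.35 and 3.79 FPKM for Qrsl1 (0.14). Mtfmt, which formylates the initiator, was at 4.57 and 4.42 FPKM (−0.042). Of these last 4 genes, 1 was higher in Per2def and 3 were lower.

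The 7 genes listed as cytosolic elongation factors or their regulators had a median difference of 0.034. Of them 4 were higher, against 62% of all genes. Under median-of-ratios scaling 1 was higher, against 50.8% of all genes. Their widest were the translocase Eef2 (467 and 513 FPKM, 0.14), its kinase Eef2k (16.3 and 15.6 FPKM, −0.060) and Eif5a (331 and 343 FPKM, 0.052). Among synthetase-like and editing genes, with a median of 0.013 over 5, Dtd1, which removes D-amino acids from transfer RNA, was at 11.0 and 12.3 FPKM (0.15) and Prorsd1 at 3.65 and 3.21 FPKM (−0.15). Tarsl2, a second cytosolic threonine enzyme, was at 4.70 and 5.18 FPKM (0.12). Aarsd1 (17.47 and 17.48 FPKM) and Dtd2 (2.51 and 2.54 FPKM) were level.

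**Figure D4:**
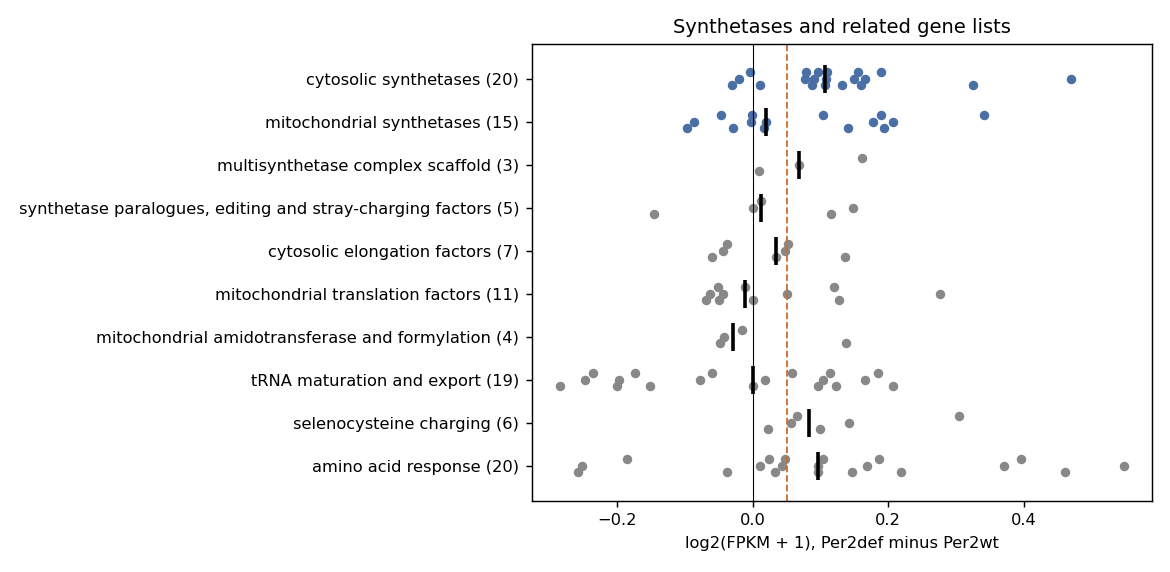
Difference in log2(FPKM + 1), Per2def minus Per2wt, of every gene at 1 FPKM or more in the synthetase groups (blue) and the related lists (grey), with the number of genes in brackets; black bars are medians and the dashed line is the median of all genes, 0.051. The list medians lie between −0.029 and 0.11, on both sides of the all-gene median.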

How the data were processed

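The authors deposited 1 table of FPKM per gene for each of 2 libraries, per the file headers. CASAVA 1.8, TopHat, Bowtie2, Cufflinks and the builds GRCm38 and mm10 are named, per the submitters' processing notes. Per the labels' protocols, RNA was selected on oligo(dT) beads and the library kit marks strand. The labels name no other versions, no annotation and no strand setting. Each file held 24487 rows. A total of 9 rows without an estimate and 27 rows with a date for a symbol were left out, and rows sharing a symbol were summed. Each member had 1 row.

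Python 3.11.15, pandas 2.3.3 and numpy 2.4.6 were used. Differences were log2 with a pseudocount of 1 FPKM, and counts cover genes reaching 1 FPKM in either library or both. Procedures were tested on simulated data, with changes of 2-fold or more put into genes of 5 FPKM or more. No member differed that much, so this does not bear on the small differences given here. Genotypes came from the genotype label. No test was made, as each genotype has 1 library. Alternatives were 3 other scalings, pseudocounts of 0.1 and 0.5, other floors and the list changes given in the text. The Mir6236 row made up 71.3% (Per2wt) and 71.5% (Per2def) of the FPKM total. FPKM divides by mapped fragments and not by that total, so the share of fragments from this row is not known.

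The members and lists were chosen with earlier results of these data known. All members were named, with the 3 widest genes of each related list, every gene of lists of 6 or fewer, and the 2 most abundant genes of marker lists, of which those for the labelled cell type are given. Gatb was found under an older name through the RefSeq gene table. The genes beside members, the erythroid genes, and those said to be so in the text, were named after their values were seen. Protein sequences were not used here. Depth per library is unknown, so no interval could be set. Some related genes and promoter matches are not reported here, and the related lists are counted without them.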

Additional observations from a re-analysis of the deposited data

How the results depend on the processing

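The scaling of the libraries decided the sign of the mitochondrial median difference, which is 0.020 as reported, −0.027 with median-of-ratios scaling and −0.011 with upper-quartile scaling, since dividing Per2def by 1.04 or 1.03 lowers every gene. With the mean in place of the median the mitochondrial value was 0.075 and the gap between the compartments 0.048, against 0.087 as reported. The cytosolic median stayed above 0 in each alternative run, from 0.056 (median of ratios) to 0.12 (mean in place of median), and the count of higher cytosolic members was 16 or 17 of 20 under the scalings, against 7 or 9 of 15 mitochondrial ones. No member reached 1.5-fold in any alternative. Single members moved by 0.1 or less in each alternative, and 3 of 35 changed sign under median-of-ratios and 3 under upper-quartile scaling. Over all genes, 290 were at least 1.5-fold higher in Per2def and 189 lower. The higher count was 524 with a pseudocount of 0.1, 192 with a floor of 5 FPKM and 153 without small and predicted RNAs, which left 83 lower. Lars left out of the cytosolic median and Sars2 left out of the mitochondrial one were chosen after seeing the data and changed the medians to 0.11 and 0.018. No paired analysis was possible because each genotype has 1 library.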

Other observations

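Among genes that mature transfer RNA before it is charged, Tsen34, Tsen15 and Tsen54, which encode subunits of the splicing endonuclease that removes transfer RNA introns, were lower in Per2def. Tsen34 was at 9.62 FPKM (Per2wt) and 7.72 FPKM (Per2def) (log2 difference −0.28), Tsen15 at 10.3 and 8.61 FPKM (−0.24) and Tsen54 at 7.27 and 6.33 FPKM (−0.17). The ligase gene Rtcb, which joins the cut ends, was level at 41.0 and 42.7 FPKM (0.058). Of the whole list 10 of 19 measured genes were higher and 9 lower, where 62% of all genes were higher. The median was 0.00013 and none reached 1.5-fold. Under median-of-ratios scaling 8 were higher and 11 lower. Pop5, of ribonuclease P, was also lower (11.3 and 9.33 FPKM, −0.25). The other ribonuclease P genes of the list went both ways, from −0.20 to 0.21. Trnt1, which adds the CCA end to which amino acids are attached, was at 6.08 and 7.05 FPKM (0.18). The grouping of the endonuclease genes, that of the ribonuclease P genes, Rtcb and Trnt1 were picked after their values were seen.

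The 6 genes for making and using selenocysteinyl-tRNA, which starts from serine attached by Sars, were all higher in Per2def, where 62% of all genes were, with a median of 0.083 against 0.051 over all genes. Sephs2 turned lower under median-of-ratios and upper-quartile scaling, and the median was 0.035 under the former. Sepsecs, which converts the attached serine, was at 2.58 FPKM (Per2wt) and 3.42 FPKM (Per2def) (0.30) and Sephs1 at 5.87 and 6.57 FPKM (0.14). Secisbp2 (0.099), Eefsec (0.066), Pstk (0.057) and Sephs2 (0.022) differed by less.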
